A study of Mus musculus with 6 samples.

Results

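The integrated stress response genes are 38 genes: ATF4, related stress regulators and genes commonly read as ATF4 targets. They were taken from the deposited count table by gene symbol, and all 38 were found among its 52459 rows. The list was chosen with earlier results of these data known. Its shares beside those of all genes therefore describe the list and are no independent test. By role they fall into 10 regulators, 4 stress effectors, 10 enzymes of amino acid synthesis and one-carbon metabolism, 6 amino acid transport proteins and 8 cytosolic tRNA synthetases. They were compared between brains of Mfsd7c-/- embryos and brains of wild-type embryos. Both groups were C57BL/6 embryos at E14.5, and whole brain RNA of 3 libraries per group was sequenced, KO1, KO2 and KO3 from knockout and WT1, WT2 and WT3 from wild-type brains. The sources used here do not say which part of Mfsd7c the allele removes or which litters the embryos came from. Each p-value sets the difference between the groups against the spread of the libraries within them. With the litters not given, any part of litter in that difference cannot be told apart from genotype. In whole tissue RNA, fewer cells of a type and less RNA per cell cannot be told apart.

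In the integrated stress response, kinases that sense haem or amino acid shortage, misfolded protein or viral RNA phosphorylate the initiation factor eIF2. General translation then drops, while a few messenger RNAs with upstream reading frames, Atf4 among them, are translated more. The ATF4 protein binds DNA as a dimer with C/EBP family partners and activates genes for amino acid supply, tRNA charging, redox balance and feedback control of the response. Because ATF4 is controlled largely at translation, the RNA of its targets and its own RNA are separate readouts, and RNA counts do not measure ATF4 protein.

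The libraries held 43784619 to 50549673 counts. Mfsd7c RNA, from the gene now named Flvcr2, averaged 2.67 ± 0.113 CPM in knockout brains and 5.20 ± 0.573 CPM in wild-type brains (SD, n = 3 each, CPM being counts scaled to a common library size with TMM factors), a log2 fold change of -0.96 (edgeR adjusted p = 0.0271). That call held without WT1, and the adjusted p was 0.109 to 0.189 with any other library left out. The table gives 1 count per gene, so the counts that remain cannot be placed within it. All 12 listed neural markers were tested and none passed, with summed levels of 7428 to 8021 CPM in knockout and 7386 to 8394 CPM in wild-type libraries. Neural RNA was thus present in every library. This does not show that the libraries hold brain RNA alone, and epidermal and caudal Hox RNA differed widely between them, as given below. The libraries differed in their mix of beta-globin RNA. The embryonic forms Hbb-y and Hbb-bh1 made up 2.80%, 23.6% and 5.03% of the beta-globin counts (with Hbb-bs and Hbb-bt, not of all counts) in KO1, KO2 and KO3, and 4.49%, 23.3% and 26.5% in WT1, WT2 and WT3. That split crosses the genotypes unevenly, with KO1, KO3 and WT1 on the low side. The first principal component of log2 CPM over all tested genes held 50.2% of the variance. On it KO1, KO3 and WT1 lay at -44.0, -9.13 and -36.3, and KO2, WT2 and WT3 at 16.7, 35.6 and 37.0. The split therefore runs along the largest axis of difference between the libraries. KO1, KO3 and WT1 also had the most epidermal marker RNA, as given below, so that axis is not particular to beta-globin. Values within each set are given with the results.

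The log2 fold change was above 0 in 36 of 38 members, where 47.4% of all tested genes were above 0. A small group of these ATF4 pathway genes passed an FDR of 0.05, with more RNA in knockout brains. Trib3, Atf3, Eif4ebp1, Atf5, Sesn2 and Shmt2 rose, and no member was called lower. Of the 6, only Trib3 passed with any 1 library left out, and Sesn2 and Shmt2 passed in 1 such fit each. The rise ran from 9.58-fold in Trib3 to 1.33-fold in Shmt2. Atf4 RNA itself, at 1.13-fold, and the tRNA synthetases lay close to their wild-type levels and did not pass the test. In this edgeR fit the genes that passed fall mainly among the regulators and effectors. They are 3 of 10 regulators, 2 of 4 effectors, 1 of 10 synthesis enzymes, 0 of 6 transport proteins and 0 of 8 synthetases. The split by role moved with the test, as DESeq2's Wald test also called Ddit4, Chac1, Mthfd2, Asns and Slc7a5.

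All 38 members passed the filter on low counts and were tested with edgeR's quasi-likelihood test over 19565 genes. At an FDR of 0.05, 6 of 38 members were higher in knockout, where 0.624% of all tested genes were called higher. The count was 2 without KO1, 2 without KO3, 1 without WT2, 2 without WT3 and 0 without WT2 and WT3 together. No member was lower by that test, and none was lower at an unadjusted p under 0.05 or by DESeq2 or limma-voom. Over all tested genes 0.0358% were called lower. The CPM of all 3 knockout libraries lay above all 3 wild-type libraries for 19 of 38 members, against 7.84% of all genes. For 0 of 38 members they all lay below, against 6.58% of all genes. The fitted log2 fold change was above 0 for 36 of 38 members, where 47.4% of all genes were above 0. The members' median was 0.20, against -0.0099 over all genes, and their range was -0.045 to 3.26. For 20 members the 95% interval of the log2 fold change lay above 0, without adjustment for the number of genes tested.

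**Figure D1:**
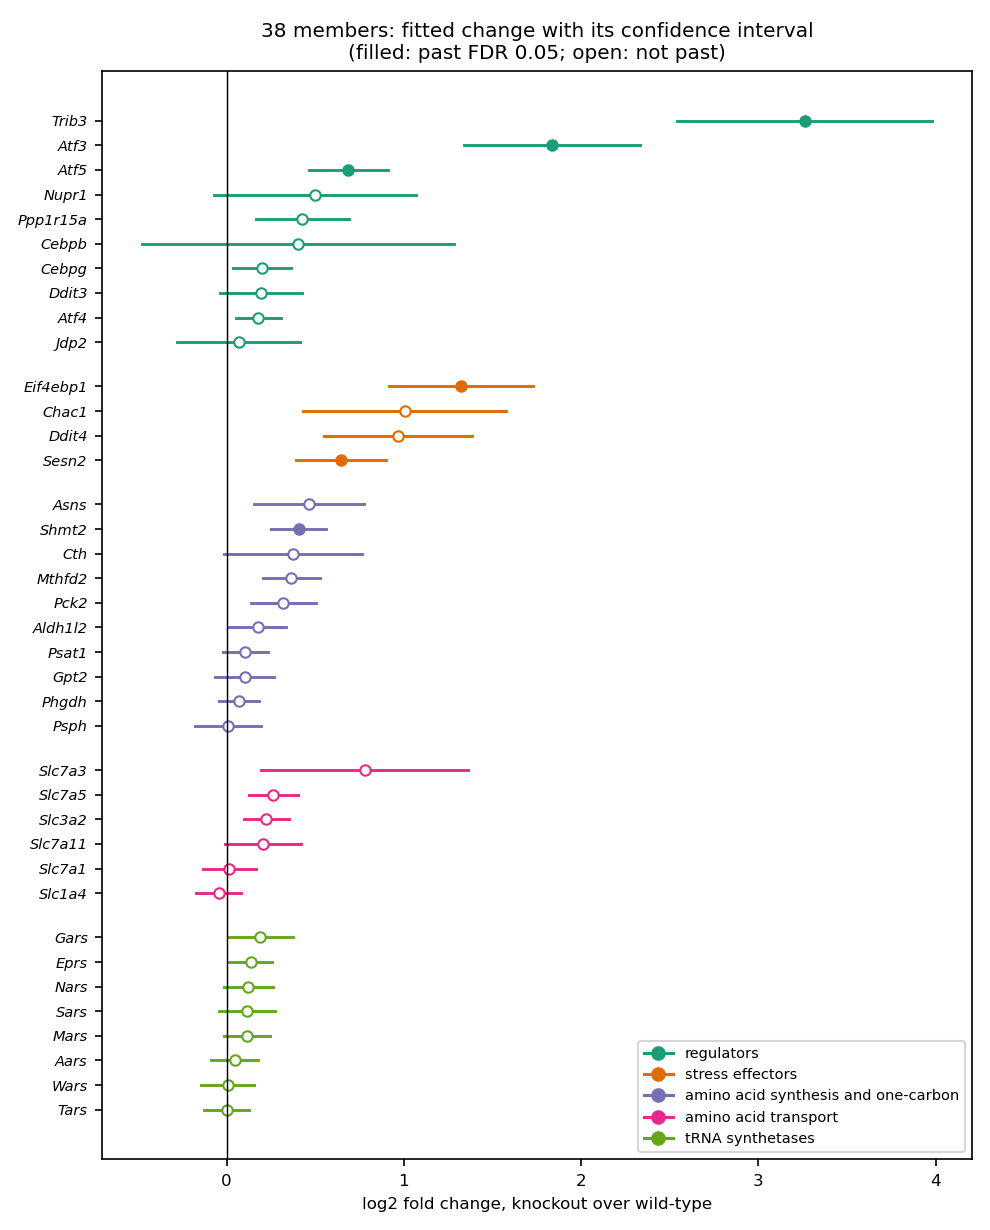
Fitted log2 fold change of knockout over wild-type (horizontal axis) for the 38 genes, grouped by role and drawn with 95% intervals. Filled points passed an FDR of 0.05 in the edgeR test. Trib3 at 3.26 and Atf3 at 1.84 stand to the right of the other members, and the 8 synthetases lie between -7.8e-05 and 0.19.

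As a share of all counts, the 38 genes together took 0.284%, 0.263% and 0.288% in KO1, KO2 and KO3, against 0.245%, 0.244% and 0.246% in WT1, WT2 and WT3. Each knockout library lay above each wild-type library, and KO2 was the lowest of its group. Averaged over the members, log2(CPM + 1) exceeded the wild-type mean by 0.40, 0.22 and 0.41 in KO1, KO2 and KO3. WT1, WT2 and WT3 lay at 0.067, -0.032 and -0.035 on the same scale. KO2 was the lowest knockout library in 31 of 38 members, where it was the lowest in 35.5% of all genes. It is also the knockout library with the high embryonic fraction of beta-globin, while its level of the adult form Hbb-bs was the lowest of the knockout libraries, at 684 CPM against 1717 and 1705 CPM in KO1 and KO3. Among the libraries with a low embryonic fraction (KO1 and KO3 against WT1) 34 of 38 members had a higher mean CPM in knockout, as did 48.5% of all tested genes. Among those with a high embryonic fraction (KO2 against WT2 and WT3) 31 members did, as did 49.1% of all tested genes. In both sets 29 members were higher in knockout, against 27.2% of all tested genes. For the 19 members whose groups lay apart, this direction was fixed in advance. The part of this split in single members was not tested beyond these values and the fit with a term for it.

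**Figure D2:**
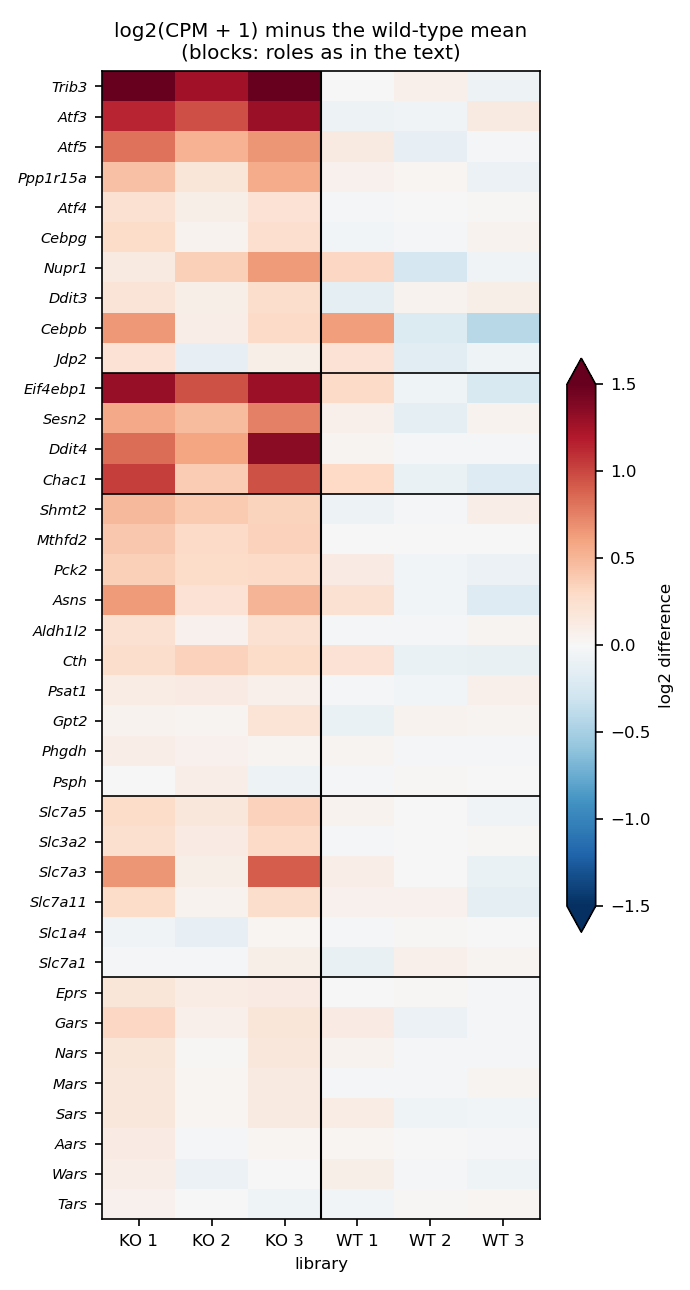
Difference of log2(CPM + 1) from the wild-type mean for each of the 38 genes (rows, in blocks by role) in each library (columns, knockout left of wild-type), with the colour scale stopping at 1.5 in either direction. The middle knockout column, KO2, is paler than its neighbours in most rows, and its mean over the genes is 0.22 against 0.40 and 0.41.

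Bases upstream of the RefSeq start are shown for the called members that have a promoter window in the RefSeq table for GRCm38.p6, which has none for Eif4ebp1. They let the response-element letters be seen in place. Sequences run 5′ to 3′ on the gene's strand, all 5 genes lying on the minus strand, and bases inside an annotated exon were left off. Capitals mark matches, on either strand, to TGATGNAA (the core of the C/EBP-ATF response element). They also mark ACGTG or GCGTG (the core of the hypoxia response element) and TGNTGCAAT, on either strand. TGNTGCAAT is a related form that need not hold TGATGNAA, and it was searched after the promoters had been seen. Trib3 is shown at chr2:152344061-152344310, Atf3 at chr1:191183341-191183583, Atf5 at chr7:44816659-44816908, Sesn2 at chr4:132510502-132510706 and Shmt2 at chr10:127522445-127522694.
Trib3: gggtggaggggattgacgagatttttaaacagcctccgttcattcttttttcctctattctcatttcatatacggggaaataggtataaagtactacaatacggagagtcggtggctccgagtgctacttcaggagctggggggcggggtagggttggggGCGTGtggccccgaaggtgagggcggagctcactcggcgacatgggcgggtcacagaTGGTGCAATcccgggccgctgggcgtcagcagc
Atf3: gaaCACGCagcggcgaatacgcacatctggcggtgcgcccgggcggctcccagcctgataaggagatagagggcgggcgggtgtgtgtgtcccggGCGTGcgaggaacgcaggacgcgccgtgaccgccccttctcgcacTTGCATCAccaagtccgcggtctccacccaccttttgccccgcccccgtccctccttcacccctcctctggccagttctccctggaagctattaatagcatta
Atf5: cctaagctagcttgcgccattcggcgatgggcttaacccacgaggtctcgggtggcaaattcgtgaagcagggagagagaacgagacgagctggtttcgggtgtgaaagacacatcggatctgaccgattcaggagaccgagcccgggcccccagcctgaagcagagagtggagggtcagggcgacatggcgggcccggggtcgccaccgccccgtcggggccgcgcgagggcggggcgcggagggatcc
Sesn2: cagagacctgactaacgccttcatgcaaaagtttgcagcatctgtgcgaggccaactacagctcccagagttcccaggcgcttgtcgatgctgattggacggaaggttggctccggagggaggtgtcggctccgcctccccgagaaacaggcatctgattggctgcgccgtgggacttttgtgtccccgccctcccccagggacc
Shmt2: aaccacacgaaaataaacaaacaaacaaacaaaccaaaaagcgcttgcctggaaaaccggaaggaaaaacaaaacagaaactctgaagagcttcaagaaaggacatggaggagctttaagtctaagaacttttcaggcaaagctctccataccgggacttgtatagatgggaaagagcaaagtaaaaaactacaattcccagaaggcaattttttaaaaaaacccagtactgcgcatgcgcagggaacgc
In these stretches Atf3 has TTGCATCA, the reverse complement form of the C/EBP-ATF core, with its first base at -110 relative to the start (-1 being the base before it). Trib3 has TGGTGCAAT with its first base at -33, and TTACATCA from base 14 after the start, outside the stretch shown. The hypoxia core lies in Trib3 at -90 and in Atf3 at -155 and -247. The Atf5, Sesn2 and Shmt2 stretches hold none of these letters, though Shmt2 has a hypoxia core from base 38 after the start. Atf5 has another RefSeq start, whose upstream bases at chr7:44815659-44815908 are not shown and hold none of these letters either.

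Over the whole windows, 250 bases before to 50 after the start, TGATGNAA was found in 12 of the 31 members with a window, which is 38.7%, and in 4.51% of 27025 genes. ACGTG or GCGTG was found in 26 of 31 members, 83.9%, and in 46.7% of genes. TGNTGCAAT was found in 4 of 31 members, 12.9%, and in 0.781% of genes. Many members are on the list because they are known ATF4 targets, so these shares describe the list and are no evidence of binding in these brains. Members without a called change hold the letters too. Chac1 has the C/EBP-ATF core at -193 and Asns at -23, and Jdp2, Nupr1, Pck2, Slc7a11, Slc1a4, Gars, Aars and Tars hold it as well.

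Among the regulators, Trib3, Atf3 and Atf5 rose and the other 7 did not pass. Trib3, on chromosome 2 from 152337422 to 152344032 (GRCm38), encodes a pseudokinase that is induced by ATF4 and CHOP and restrains both. Its level was 4.20, 2.33 and 4.67 CPM in KO1, KO2 and KO3, against 0.383, 0.457 and 0.319 CPM in WT1, WT2 and WT3. The lowest knockout library was above the highest wild-type library. It was a scarce transcript, with 118 to 224 counts per knockout library and 16 to 23 per wild-type library. The log2 fold change was 3.26 (SE 0.316, 95% interval 2.54 to 3.98, edgeR adjusted p = 0.00299). It passed with any 1 library left out and lost the call without WT2 and WT3 together, at an adjusted p of 0.105.

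Atf3, on chromosome 1 from 191170296 to 191218039, encodes a stress-induced transcription factor of the same leucine zipper family as ATF4. Its level was 3.13, 2.66 and 3.59 CPM in KO1, KO2 and KO3, against 0.767, 0.796 and 1.06 CPM in WT1, WT2 and WT3. The groups did not overlap, and KO2 was again the lowest of its group. Its log2 fold change was 1.84 (SE 0.217, edgeR adjusted p = 0.00868). The adjusted p was 0.0769 without KO3, 0.0711 without WT2 and 0.0936 without WT2 and WT3 together.

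Atf5, on chromosome 7 from 44812256 to 44816658, encodes a leucine zipper factor whose messenger RNA, like that of Atf4, is translated more when eIF2 is phosphorylated. Per length of exon it was the most abundant of the 3 regulators that rose, at 22.6 RPKM in knockout and 14.1 RPKM in wild-type brains (CPM per kilobase of exon). By library it was at 49.9, 40.7 and 44.7 CPM in KO1, KO2 and KO3, against 30.8, 25.7 and 27.6 CPM in WT1, WT2 and WT3. The groups lay apart, with the smallest gap between KO2 and WT1. On the log2 scale it was higher by 0.69 (SE 0.0982, edgeR adjusted p = 0.0199). The adjusted p was 0.0875 without KO1, 0.153 without KO3, 0.124 without WT2 and 0.122 without WT3. Of its exon bases, 4.11% overlap Nup62 or Il4i1 on the opposite strand, and the sources used here do not give the strand setting of the counting. Nup62 had a log2 fold change of 0.011 (edgeR adjusted p = 0.977).

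Atf4, the central transcription factor of the response, was measured at 142.9, 130.0 and 142.6 CPM in KO1, KO2 and KO3, against 121.1, 122.3 and 123.6 CPM in WT1, WT2 and WT3. The knockout libraries all lay above the wild-type ones, by a small margin. The log2 fold change was 0.18 (SE 0.0558, 95% interval 0.052 to 0.31, edgeR adjusted p = 0.391), so a rise of more than that upper bound lies outside the interval. Per length of exon, Atf4 was one of the most abundant members, at 58.7 RPKM in knockout and 51.9 RPKM in wild-type brains. Only Ddit4 was higher in wild-type brains, while Trib3 at 1.76 and 0.182 RPKM and Atf3 at 1.45 and 0.405 RPKM (knockout and wild-type) had the lowest wild-type levels of all 38.

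The phosphatase subunit gene Ppp1r15a, whose product reverses eIF2 phosphorylation, was at 17.5, 14.5 and 19.1 CPM in KO1, KO2 and KO3, against 13.3, 12.9 and 11.9 CPM in WT1, WT2 and WT3. The groups did not overlap, but the log2 fold change of 0.43 (SE 0.115) did not pass (edgeR adjusted p = 0.281). Ddit3, which encodes CHOP, a factor that acts with ATF4 in prolonged stress, was at 15.1, 13.9 and 15.8 CPM in KO1, KO2 and KO3, against 11.7, 13.5 and 13.9 CPM in WT1, WT2 and WT3. KO2 was nearly level with WT3, and the log2 fold change was 0.19 (95% interval -0.037 to 0.43, edgeR adjusted p = 0.686). Cebpg and Cebpb encode partners of ATF4 and had log2 fold changes of 0.20 and 0.40. The interval of the scarce Cebpb was wide, from -0.48 to 1.29, with wild-type libraries between 1.34 and 3.81 CPM. Of the Cebpb exon bases 20.7% overlap Tmem189, so its counts are uncertain. Nupr1, a stress-induced chromatin protein gene, had a log2 fold change of 0.50 with overlapping groups.

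Jdp2 encodes a repressor that binds the same sites as AP-1 and lies on chromosome 12 from 85599027 to 85639878, near the targeted gene. From the end of Jdp2 to the start of Mfsd7c there are 106660 bases, and genes in between were not looked for. The level of Jdp2 was 9.11, 7.02 and 8.28 CPM in KO1, KO2 and KO3, against 9.15, 6.80 and 7.34 CPM in WT1, WT2 and WT3. The groups overlapped, and the log2 fold change was 0.067 (SE 0.152, edgeR adjusted p = 0.945).

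**Figure D3:**
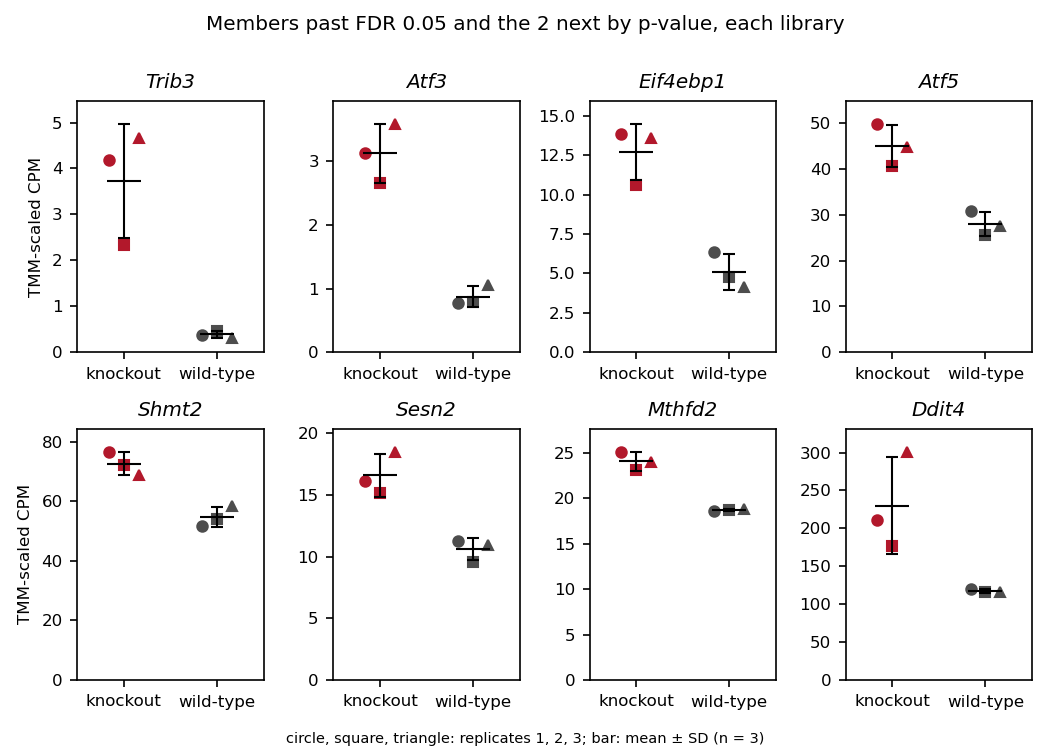
Level in TMM-scaled CPM (vertical axes, each starting at 0) in every library for the 6 genes past an FDR of 0.05 and the 2 next by p-value, Mthfd2 and Ddit4. Knockout stands left of wild-type, symbols mark replicates 1, 2 and 3, and bars give the mean and SD of 3 libraries. In all 8 panels each knockout library lies above each wild-type library, as for Ddit4 at 177 to 301 CPM against 116 to 121 CPM.

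The 4 stress effectors had the highest median change of the 5 roles, a log2 fold change of 0.99, and in all 4 the groups lay apart. Eif4ebp1 and Sesn2 rose. Eif4ebp1, on chromosome 8 from 27260329 to 27276674, encodes 4E-BP1, which binds the cap-binding factor eIF4E and holds back translation. Its level was 13.9, 10.6 and 13.6 CPM in KO1, KO2 and KO3, against 6.34, 4.75 and 4.15 CPM in WT1, WT2 and WT3. It rose by 1.32 on the log2 scale (SE 0.178, fold 2.504, edgeR adjusted p = 0.0151). The adjusted p was 0.0813 without KO1, 0.140 without KO3, 0.112 without WT2 and 0.0804 without WT3.

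Sesn2, on chromosome 4 from 132492032 to 132510501, encodes a sestrin, a leucine-binding inhibitor of mTORC1 signalling. Its level was 16.1, 15.1 and 18.5 CPM in KO1, KO2 and KO3, against 11.2, 9.57 and 10.97 CPM in WT1, WT2 and WT3. The highest wild-type library was well under the lowest knockout library. This was a log2 difference of 0.65 (SE 0.111, edgeR adjusted p = 0.0479), close to the threshold. The adjusted p was 0.170 without KO1, 0.0693 without KO2, 0.290 without KO3, 0.281 without WT2 and 0.189 without WT3.

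Ddit4, also known as REDD1, inhibits mTORC1 and is induced by low oxygen as well as by ATF4. It had the highest wild-type level per exon length of all members, at 131 RPKM in knockout and 67.0 RPKM in wild-type brains. By library it was at 211, 177 and 301 CPM in KO1, KO2 and KO3, against 121, 116 and 116 CPM in WT1, WT2 and WT3. Knockout libraries spread widely, with an SD of 64.2 CPM against 2.56 CPM in wild-type. The fold was 1.95 (log2 0.97, SE 0.177), and it did not pass (edgeR adjusted p = 0.0913). It did pass without KO2 or without KO3, at adjusted p values of 0.0158 and 0.0420. Chac1, whose product degrades glutathione, was at 6.77, 3.94 and 6.39 CPM in KO1, KO2 and KO3, against 3.65, 2.55 and 2.31 CPM in WT1, WT2 and WT3. KO2 was near WT1, and the fold of 2.01 (log2 SE 0.251) did not pass (edgeR adjusted p = 0.225).

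Among the enzymes of amino acid synthesis and one-carbon metabolism, the mitochondrial folate enzyme gene Shmt2 rose, and the 3 genes of serine synthesis had log2 fold changes of at most 0.11. Shmt2, on chromosome 10 from 127517123 to 127522444, converts serine to glycine and passes a one-carbon unit to folate in mitochondria. Its level was 76.7, 72.3 and 68.8 CPM in KO1, KO2 and KO3, against 51.8, 54.0 and 58.4 CPM in WT1, WT2 and WT3. The groups were apart, though by a smaller ratio than the other called members. The log2 fold change was 0.41 (SE 0.0680, edgeR adjusted p = 0.0404). The adjusted p was 0.210 without KO1, 0.142 without KO2, 0.154 without KO3, 0.256 without WT2 and 0.0933 without WT3. Its exons share 32 bases, 1.03% of their length, with Ndufa4l2 on the opposite strand, which was at 3.06 to 5.77 CPM over all libraries.

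Mthfd2, which acts after Shmt2 in the mitochondrial folate pathway, was at 25.2, 23.1 and 24.0 CPM in KO1, KO2 and KO3, against 18.6, 18.7 and 18.8 CPM in WT1, WT2 and WT3. The wild-type libraries were nearly identical and all lower, yet the log2 fold change of 0.37 (SE 0.0706) did not pass (edgeR adjusted p = 0.0848). Pck2, a mitochondrial enzyme that makes phosphoenolpyruvate, was at 25.1, 23.7 and 24.0 CPM in KO1, KO2 and KO3, against 21.2, 18.9 and 18.3 CPM in WT1, WT2 and WT3. Its groups were apart too, with a log2 fold change of 0.32 (edgeR adjusted p = 0.234). Asns makes asparagine and is a classic amino acid response gene. It was at 55.4, 41.3 and 50.6 CPM in KO1, KO2 and KO3, against 41.6, 34.4 and 30.7 CPM in WT1, WT2 and WT3. KO2 lay just under WT1, so the groups overlapped, and the log2 fold change of 0.47 did not pass (edgeR adjusted p = 0.346).

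The other synthesis members did not pass. Aldh1l2, a mitochondrial folate oxidase, had a log2 fold change of 0.18, and Cth, which makes cysteine from cystathionine, had 0.38 at 2.59 to 3.94 CPM over all libraries. Of the Aldh1l2 exon bases 14.1% overlap D10Wsu102e, which makes its counts uncertain too. The serine pathway genes Phgdh, Psat1 and Psph, for its first, second and last steps, had 0.069, 0.11 and 0.0066. Their intervals end at 0.18, 0.23 and 0.19, each below the 0.41 of Shmt2. Of the Psph exon bases 10.4% overlap a Cct6a transcript on the opposite strand, so its counts and interval are uncertain. Phgdh and Psat1 were abundant, Phgdh at 49.2 RPKM in knockout and 46.9 RPKM in wild-type brains. Gpt2, the mitochondrial alanine aminotransferase, had a log2 fold change of 0.10.

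None of the 6 transport members passed. Slc7a5 and Slc3a2 encode the light and heavy chains of the large neutral amino acid exchanger LAT1, and both had small differences with the groups apart. Slc7a5 was at 119, 110 and 125 CPM in KO1, KO2 and KO3, against 102, 98.3 and 95.0 CPM in WT1, WT2 and WT3, a log2 change of 0.26 (SE 0.0610, edgeR adjusted p = 0.172). Slc3a2 was at 113, 104 and 117 CPM in KO1, KO2 and KO3, against 94.5, 95.0 and 96.7 CPM in WT1, WT2 and WT3, a log2 change of 0.22 (SE 0.0562, edgeR adjusted p = 0.230). For both genes KO2 was the lowest knockout library. Without WT1, Slc7a5 passed (edgeR adjusted p = 0.0409), as did Pck2 (0.0373) and Chac1 (0.0371). Slc7a3, a cationic amino acid carrier, had the highest fold of the transport members, 1.72 (edgeR adjusted p = 0.429). It was scarce, at 2.68 to 5.49 CPM in knockout and 2.21 to 2.71 CPM in wild-type libraries, and the groups overlapped. The cystine carrier Slc7a11, the neutral carrier Slc1a4 and the cationic carrier Slc7a1 had log2 fold changes of 0.21, -0.045 and 0.015.

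The 8 tRNA synthetases, which charge tRNAs with their amino acids and are shared ATF4 targets in many cell types, had the lowest median of the 5 roles. It was a log2 fold change of 0.11, 7 of 8 were above 0, and none passed. Only in Eprs, the bifunctional glutamyl-prolyl synthetase, were the groups apart, at 231, 220 and 222 CPM in KO1, KO2 and KO3, against 206, 206 and 201 CPM in WT1, WT2 and WT3. That is a log2 change of 0.14 (SE 0.0526, edgeR adjusted p = 0.538). Gars, Nars, Sars, Mars, Aars, Wars and Tars had log2 fold changes of 0.19, 0.12, 0.12, 0.11, 0.047, 0.0060 and -7.8e-05. The interval of Tars ran from -0.13 to 0.13. Of the Aars exon bases 14.3% overlap Exosc6 on the same strand, so the Aars counts are uncertain. The upper bound of the interval was at most 0.37 for all 8.

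The rest of the pathway was read from further lists. Of 15 tested genes for the eIF2 kinases, eIF2, eIF2B and their regulators, 0 passed in either direction, and the median log2 fold change was -0.029. The eIF2 kinases Eif2ak1 (activated by haem shortage), Eif2ak2 (double-stranded RNA), Eif2ak3 (endoplasmic reticulum stress) and Eif2ak4 (amino acid shortage) had -0.043, 0.048, 0.10 and -0.058. Ppp1r15b, the constitutive partner of the eIF2 phosphatase, had the lowest p-value of the list at 0.19 (edgeR adjusted p = 0.325), followed by Eif2s2 at 0.13. These kinases act through protein activity, which RNA counts do not measure.

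Of 18 tested genes among 19 other known ATF4 targets in the table, 3 rose and 0 fell, with a median log2 fold change of 0.16. They were Stc2, a secreted glycoprotein hormone gene, Vegfa, the main growth factor for blood vessels, and Vldlr, a lipoprotein and reelin receptor gene. Vegfa is also a classic hypoxia target. A place on this list does not make Stc2, Vegfa or Vldlr a readout of ATF4 alone, and what induced them was not tested. Stc2 was at 18.7, 14.1 and 23.4 CPM in KO1, KO2 and KO3, against 3.77, 2.82 and 3.35 CPM in WT1, WT2 and WT3. Its log2 fold change was 2.498 (SE 0.198, edgeR adjusted p = 0.00101). It passed with any 1 library left out and lost the call without WT2 and WT3 together, at an adjusted p of 0.117. Vegfa had 1.55 (SE 0.192, edgeR adjusted p = 0.0215). Vegfa missed without KO1 (0.0713), without WT1 (0.0922), without WT2 (0.102) and without WT3 (0.149). Vldlr had 0.54 (SE 0.0787, edgeR adjusted p = 0.0227), and missed without KO1 (0.0712), WT2 (0.167) or WT3 (0.126).

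**Figure D4:**
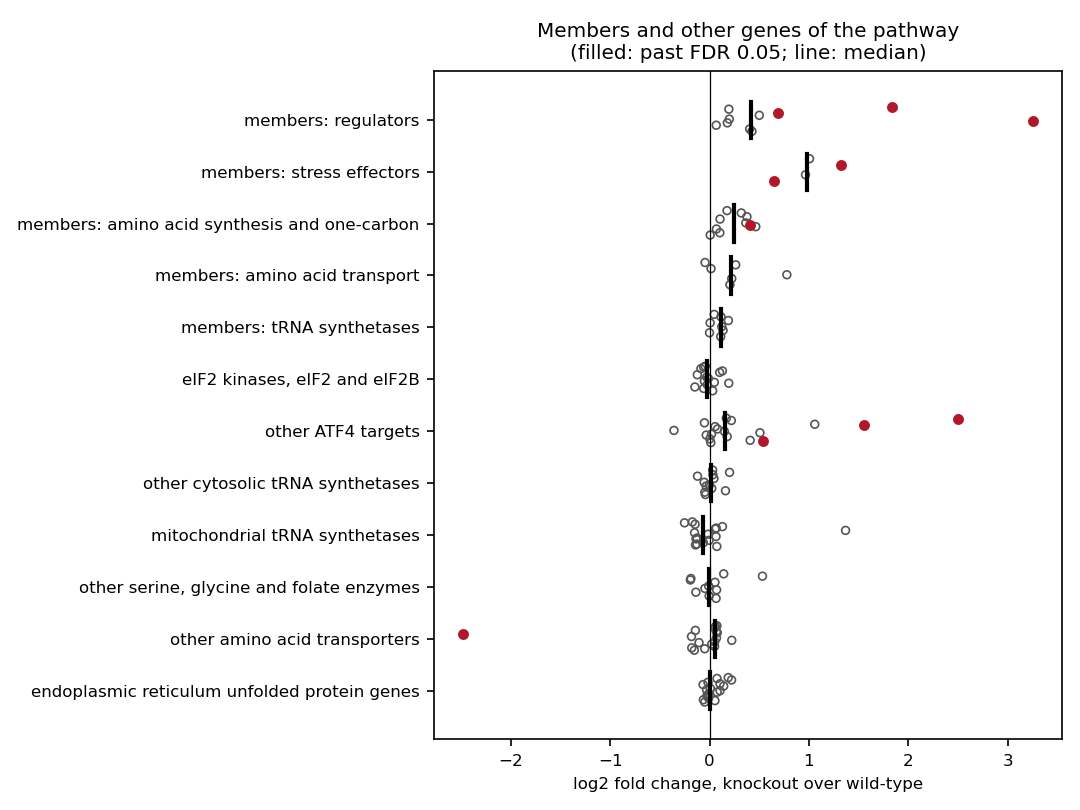
Log2 fold change of knockout over wild-type (horizontal axis) for each gene of the 5 roles and of 7 further pathway lists (rows), with a vertical bar at each list's median and filled points past an FDR of 0.05. The highest median is that of the stress effectors at 0.99, and the single called gene left of 0 is Slc38a5 at -2.48.

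None of 18 tested chaperone and unfolded protein genes of the endoplasmic reticulum passed, with a median log2 fold change of 0.0013. Hspa5, the chaperone BiP and the usual readout of endoplasmic reticulum stress, had -0.016. The 2 with the lowest p-values were Atf6, a stress sensor of that membrane, at 0.19 (edgeR adjusted p = 0.404), and Edem1, which takes part in disposal of misfolded glycoproteins, at 0.14 (edgeR adjusted p = 0.662). None of the 12 other cytosolic synthetases passed, with a median of 0.011. Iars and Yars, the isoleucyl and tyrosyl enzymes, had the lowest p-values, at 0.20 and 0.16. None of the 17 mitochondrial synthetases passed, with a median of -0.062 and Tars2 and Aars2 at -0.25 and -0.17. Lars2, the mitochondrial leucyl enzyme, stood apart in 1 library, at 161, 1011 and 168 CPM in KO1, KO2 and KO3, against 161, 197 and 160 CPM in WT1, WT2 and WT3.

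Of 11 other serine, glycine and folate enzymes 0 passed, with a median log2 fold change of -0.0040. Mthfd1l, the mitochondrial formate-producing step, had the highest value at 0.53 (SE 0.106, edgeR adjusted p = 0.0913), and Mthfd2l, a mitochondrial relative of Mthfd2, had -0.14. The 17 other amino acid transporters had a median of 0.051. Of these 0 rose and 1 fell, where 0.0358% of all tested genes were called lower. The 1 was Slc38a5, a glutamine carrier, which was at 2.25, 3.39 and 2.84 CPM in KO1, KO2 and KO3, against 13.3, 16.8 and 17.4 CPM in WT1, WT2 and WT3. Its log2 fold change was -2.48 (SE 0.175, edgeR adjusted p = 0.000854). It passed with any 1 library left out, and without WT2 and WT3 together at an adjusted p of 0.0129.

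Most listed low-oxygen response genes were also higher in the knockout libraries. The 22 listed hypoxia response genes had a median log2 fold change of 0.90. Pfkfb4 was the 1 gene below 0, at -0.12 (edgeR adjusted p = 0.711). Of the 22, 14 rose and 0 fell, where 0.624% of all tested genes were called higher and 0.0358% lower. Those 14 were Slc16a3, Pdk1, Bnip3, Ak4, Hk2, Egln3, Ero1l, Adm, Higd1a, Fam162a, P4ha1, Pfkfb3, Egln1 and Bhlhe40. Their log2 fold changes ran from 3.02 in the lactate carrier gene Slc16a3 to 0.54 in the oxygen sensor gene Egln1. The summed level of all 22 was 1353, 1178 and 1571 CPM in KO1, KO2 and KO3, against 743, 724 and 741 CPM in WT1, WT2 and WT3. KO2 was thus the lowest knockout library here as well. The count was 9 without KO1, 8 without KO3, 4 without WT2, 6 without WT3 and 1 without both. The part of these genes in the members' values was not tested.

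Marker lists of other cells gave further values beside the members. Over all tested genes, 0.624% were called higher and 0.0358% lower. Summed erythroid markers were 3535, 1768 and 3605 CPM in KO1, KO2 and KO3, against 2480, 1154 and 1246 CPM in WT1, WT2 and WT3, with 0 of 9 called, so KO2 was low here too. Summed endothelial markers were 319 to 350 CPM in knockout and 260 to 316 CPM in wild-type libraries, with Pecam1 and Emcn called higher and Cldn5 lower among 8. Microglial markers, with 0 of 11 called, were 149 to 175 CPM in knockout and 140 to 154 CPM in wild-type libraries. Mural cell markers, with Rgs5 called lower among 6, were 126 to 135 CPM in knockout and 183 to 206 CPM in wild-type libraries. Meningeal markers were 993 to 1242 CPM in knockout and 844 to 1691 CPM in wild-type libraries, with 0 of 7 called. Epidermal markers, with 0 of 7 called, were 331, 17.3 and 65.1 CPM in KO1, KO2 and KO3, against 271, 17.3 and 9.96 CPM in WT1, WT2 and WT3. Muscle markers were 3.51 to 11.9 CPM in knockout and 4.97 to 30.0 CPM in wild-type libraries. Hox genes of caudal tissue were at 0.591 to 2.83 CPM in knockout and 4.40 to 168 CPM in wild-type libraries, with 0 of 8 tested genes called. Their part in the members' values was not tested.

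Within each set of libraries of like embryonic fraction of beta-globin, the called members had a higher mean in knockout. Their groups lay apart over all 6 libraries, so this direction was fixed in advance and only the sizes add to it. As the log2 ratio of mean CPM, Trib3 had 3.53 in the set with the low fraction and 2.58 in the set with the high fraction. Atf3 had 2.13 and 1.52, Atf5 had 0.62 and 0.61, and Eif4ebp1 had 1.117 and 1.258. Sesn2 had 0.62 and 0.56, and Shmt2 had 0.49 and 0.36. Atf4 had 0.24 and 0.081 in the same order. Each set has 1 library in 1 of its groups, so these ratios carry no test.

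The authors' deposited table, made from the same 6 libraries, lists 11 of the 38 members past an adjusted p of 0.05, all higher in knockout, among 308 genes in all. Beyond the 6 above these are Ddit4, Chac1, Asns, Mthfd2 and Slc7a5, with adjusted p values of 1.2e-07, 0.00615, 0.0467, 0.00521 and 0.0495 in the authors' deposited table. It gives Trib3 an adjusted p of 1.1e-17. Being from the same libraries, it is no independent check.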

How the data were processed

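Whole brain RNA of 3 knockout and 3 wild-type embryos was grouped by the sample titles. The deposited table holds counts per gene symbol, whole numbers with no normalization. Per the submitters' processing notes STAR 2.5.2a, featureCounts and DESeq2 1.12.4 were used, and the builds mm10 and hg19 are listed with no role. The sources used here do not give the annotation release or the strand setting. Per the file headers, the authors' second table holds a mean of normalized counts (a signal value), the log2 fold change and its error, the Wald statistic as a score, and raw and adjusted p-values.

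In edgeR 4.0.16, filterByExpr kept 19565 genes, which were TMM-scaled. The quasi-likelihood test (robust) set knockout over wild-type, and p-values were Benjamini-Hochberg adjusted over every tested gene at an FDR of 0.05. The common biological coefficient of variation was 15.3%, and the procedure was tested on simulated data. Every pair of libraries differed by more than sampling noise. RPKM uses merged exon lengths from GENCODE M21 on GRCm38. Alternatives were DESeq2 1.42.0, limma-voom (limma 3.58.1), other scalings, filters and thresholds, a replicate block, a term for libraries whose embryonic forms exceed 10% of beta-globin counts, and 1 or 2 libraries left out. Values within the sets of that split, and the TGNTGCAAT motif, were added after seeing the data. R 4.3.3 and matplotlib 3.10.9 were used.

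The 38 members and all lists were chosen with earlier results of these data known. All members are named, with values in every library for those past the FDR, the 8 next by p-value, Atf4, Ddit3, Atf5, Ppp1r15a and Jdp2. Values of Eprs, and of Lars2 in the further lists, were added after they were seen. Of other lists the genes past the FDR are named, or otherwise the 2 with the lowest p-values. Counting error was not compared with replicate spread for single members, and it weighs most in scarce members such as Trib3.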

Additional observations from a re-analysis of the deposited data

How the results depend on the processing

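The number of members called higher was 6 of 38. It was 6 with DESeq2 size factors and with upper-quartile factors, 7 with no low-count filter, 5 with a filter of 1 CPM, 4 with limma-voom, 11 with DESeq2's Wald test and 10 with a term for the embryonic fraction of beta-globin. It was 2 at an FDR of 0.01, 8 at an FDR of 0.1, 10 without both libraries numbered 1 and 0 without wild-type replicates 2 and 3. Leaving out 1 library gave 1 to 9. The cause was not tested. No setting called a member lower. The filter of 1 CPM lost Sesn2, and limma-voom lost Sesn2 and Shmt2. Over all genes, the calls ranged from 36 to 388 with 1 library left out, and were 129 in full, 313 with DESeq2's Wald test, 211 with no filter and 236 with the embryonic beta-globin term. They were 459 without both libraries numbered 1 and 20 without wild-type replicates 2 and 3. The members' median log2 fold change ranged from 0.17 to 0.27 with 1 library left out. With the replicate number as a block, 8 members and 282 genes were called and the median was 0.20. The correlations of same-numbered libraries were 0.587, 0.310 and 0.0337, so the numbers were not taken to pair the libraries. Signs changed only in 6 members near 0 or scarce, none of which passed in any setting. Tars had 0.00019 and 0.0017 with the other scalings, 0.0081 with no filter, 0.0036 by DESeq2, 0.011 with the embryonic beta-globin term and 0.049 without wild-type replicates 2 and 3. In the last 2 fits Jdp2 had -0.043 and -0.17 and Wars had -0.039 and -0.073. Cebpb had -0.33 without wild-type replicates 2 and 3, and Slc7a1 had -0.024 without both libraries numbered 1. With 1 library left out, Tars ranged from -0.034 to 0.033, Jdp2 from -0.020 to 0.20, Wars from -0.041 to 0.054, Psph from -0.043 to 0.051 and Slc7a1 from -0.041 to 0.056.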
